A study of Mus musculus with 3 samples.

Results

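Granulosa cells taken 12 h after an ovulatory dose of human chorionic gonadotropin (hCG) were compared with granulosa cells taken just before it (0 h). Granulosa cells are the somatic cells that line the ovarian follicle and surround the oocyte. Both groups came from wild type C57BL/6 female mice, 21 to 28 days old, given 4 IU of equine chorionic gonadotropin (eCG), which stimulates follicle growth. The 12 h mice had then received 5 IU of hCG, a ligand of the receptor for luteinizing hormone, and the 0 h mice had not. Cells were released by puncturing the follicles, total RNA was taken from 3 mice at each time, and an mRNA library was made. The 2 libraries compared are 2 of the 3 in the series, and the third, from 4 h after hCG, is given beside them to place each difference in time. Each time has 1 library, so there is no measure of the spread between mice, no test could be run, and every difference below is one between 2 libraries. The sources used here do not give whether the RNA of the 3 mice was pooled.

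The surge of luteinizing hormone, which hCG imitates, ends the growth of the follicle and starts ovulation and luteinization. Granulosa cells leave the cell cycle, stop making estradiol, turn to progesterone and become the luteal cells of the corpus luteum. Early signals, among them EGF-like growth factors and prostaglandins, are known to loosen the follicle wall and expand the cells around the oocyte, and are followed by matrix remodelling and the ingrowth of vessels.

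Levels are FPKM (fragment counts divided by transcript length and by library depth), summed over the isoforms of each gene. The log2 fold is log2 of FPKM + 1 at 12 h over FPKM + 1 at 0 h, a scale that understates the change of low genes. Of 20516 protein-coding genes, 12350 reached 1 FPKM in 1 of the 2 libraries and were measured, and 8166 did not. Calls of higher or lower required a 2-fold difference, a rule of size that stands in for a test. The intervals beside levels are the deposited bounds of the FPKM estimate. They describe 1 library and not the spread between mice. From the spacing of low values the 0, 4 and 12 h libraries held about 13400000, 12000000 and 11600000 fragments, and 1 fragment on a transcript of 2 kb was worth 0.0419 FPKM at 0 h and 0.0479 at 12 h. Protein-coding genes summed to 401380 FPKM at 0 h, 468558 at 4 h and 385405 at 12 h.

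Most transcripts were within 2-fold of their level before hCG. By the 2-fold rule 323 genes were higher at 12 h (2.62% of those measured) and 240 were lower (1.94%), 563 in all (4.56%). The counts of called list members given below are to be read beside these shares. A fold of at least 4 was reached by 42 genes upward and 32 downward, and a fold of at least 8 by 5 and 4. The median log2 fold was -0.01, the middle 50% of genes lay between -0.21 and 0.21, and 5% and 95% of genes lay below -0.63 and 0.77. The deposited intervals lay apart for 265 of the higher and 191 of the lower genes. Some genes listed at 0 have an interval of 0 to 0, such as Cyp11b1 and Il6 at 0 h. For these any positive lower bound in the other library counts as apart. Of the called genes, 104 higher and 75 lower were under 5 FPKM in both libraries. The remaining 219 higher and 165 lower genes reached 5 FPKM in at least 1 of them. Where both libraries had at least 10 FPKM (6757 genes), 60 were higher and 68 lower. That last filter also leaves out genes that were abundant in only 1 library, such as Akr1b7 and Comp. Before hCG 29 of the higher genes were listed at 0, and 19 of the lower genes were listed at 0 at 12 h. Such genes are given by their levels without a fold. Just inside the threshold were C1qa at 8.02 and 17.0 FPKM (0 h and 12 h) and Nfil3 at 11.1 and 23.2. Just outside it were Dsel at 21.4 and 10.2 and Fkbp5 at 84.9 and 170 FPKM.

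**Figure D1:**
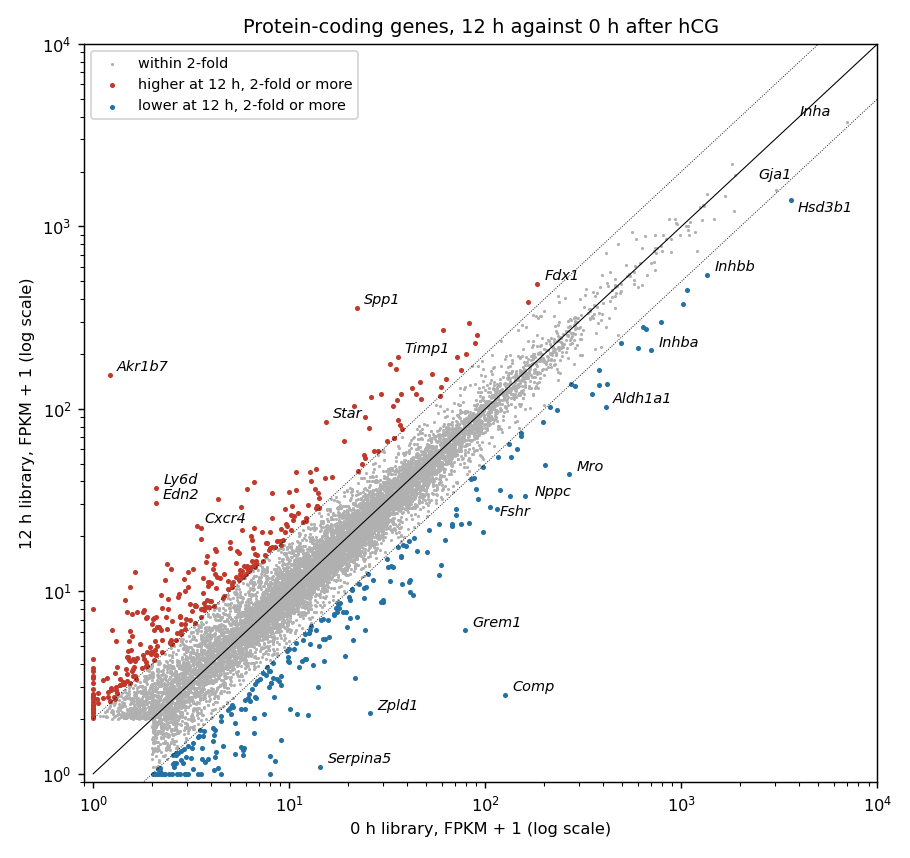
FPKM + 1 of each of the 12350 measured protein-coding genes in the 0 h library (horizontal) and the 12 h library (vertical), both on log scales, with genes past the 2-fold threshold in colour and dotted lines at 2-fold. The 323 higher and 240 lower genes lie off a dense diagonal, with Akr1b7 farthest above it and Comp farthest below.

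The gene with the largest difference was Akr1b7, an aldo-keto reductase that detoxifies the aldehyde released when cholesterol is cut to make steroids. It was at 0.216 FPKM at 0 h (interval 0 to 0.724), 63.2 at 4 h and 153 at 12 h (143 to 163), a log2 fold of 6.98. Its level was higher in each later library. The 250 bases before its RefSeq start, at chr6:34412112-34412361 on the plus strand (GRCm38.p6), are shown because no other measured gene differed as much. Capitals mark a match to AAGGTCA, the core bound by the steroidogenic factors SF-1 and LRH-1, which lies on the opposite strand 248 to 242 bases before the start, and a match to the forkhead (FOX) motif TGTTTAC 143 to 137 bases before it. A match describes letters and does not show that a factor binds.
Akr1b7: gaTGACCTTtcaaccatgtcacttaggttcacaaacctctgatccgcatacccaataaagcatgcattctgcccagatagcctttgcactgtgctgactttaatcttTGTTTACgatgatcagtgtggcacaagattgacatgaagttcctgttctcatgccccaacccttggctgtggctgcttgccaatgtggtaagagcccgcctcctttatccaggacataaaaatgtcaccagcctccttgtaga

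The genes that followed it in size of difference had varied roles. Ly6d, a lipid-anchored surface protein, was at 1.09, 59.3 and 35.8 FPKM at 0, 4 and 12 h (log2 fold 4.14). Spp1, the secreted matrix glycoprotein osteopontin, was at 21.0, 152 and 358 FPKM (4.03), with intervals of 16.4 to 25.7 at 0 h and 343 to 374 at 12 h. Edn2, the vasoactive peptide endothelin-2, was at 1.08, 7.83 and 29.6 FPKM (3.88). Spp1 and Edn2, like Akr1b7, were highest in the 12 h library, while Ly6d was highest at 4 h. Asgr1, a subunit of the asialoglycoprotein receptor, was at 0.636, 12.7 and 11.8 FPKM (2.97). Bves, a membrane protein that binds cAMP, was at 3.31, 44.1 and 30.9 FPKM (2.89). Srgn, the proteoglycan serglycin of secretory granules, was at 2.55, 8.67 and 21.2 FPKM (2.65). The steroid 11-beta-hydroxylase gene Cyp11b1, which the adrenal cortex uses to make corticosterone, was listed at 0 in the 0 h library and reached 5.81 FPKM at 4 h and 7.05 at 12 h. Rpp25, a subunit of ribonuclease P, was at 1.38, 9.02 and 13.0 FPKM (2.56).

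A second set of the leading genes was far higher at 4 h than at 12 h. The chemokine receptor Cxcr4 was at 2.37, 314 and 21.7 FPKM at 0, 4 and 12 h (2.75 for 12 h over 0 h). F3, the tissue factor that starts clotting, was at 5.61, 633 and 38.7 FPKM (2.59). The transcriptional cofactor Cited4 was at 5.06, 119 and 35.3 FPKM (2.58). In each of these 3 genes the 12 h interval lay above the 0 h interval, as estimated within 1 library each. Mrap and Alas1 were chosen after their values were seen. Mrap, the accessory protein of melanocortin receptors, was at 31.6, 914 and 174 FPKM (2.43). Alas1, the first enzyme of heme synthesis, was at 25.2, 75.7 and 114 FPKM (2.14) and, unlike the others here, was highest at 12 h.

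The gene with the lowest log2 fold was Comp. Comp, the cartilage oligomeric matrix protein, was at 125 FPKM at 0 h (119 to 131), 101 at 4 h and 1.70 at 12 h (0.964 to 2.44), a log2 fold of -5.54. Most of the difference lay between 4 h and 12 h. Zpld1, a zona pellucida domain protein, was at 24.7, 119 and 1.15 FPKM (-3.58), and Gabrb2, a subunit of the GABA type A receptor, was at 13.0, 20.1 and 1.998 FPKM (-2.23). Both were above their 0 h level at 4 h and below it at 12 h. Serpina5, an inhibitor of serine proteases, was at 13.4, 7.12 and 0.0888 FPKM (-3.73). Frzb, a secreted protein that binds WNT ligands, was at 20.7, 8.54 and 2.35 FPKM (-2.70). Serpina3c (7.45, 0.111 and 0.176 FPKM), the transmembrane serine protease gene Tmprss13 (9.90, 0.275 and 1.13 FPKM) and Mro (267, 12.9 and 42.7 FPKM) were already low at 4 h. The assembly factor gene Pet117 was at 6.97 FPKM at 0 h with an interval of 0 to 16.4 and was listed at 0 in both later libraries. For the beta globin gene Hbb-bs the 0 h and 12 h levels were 57.2 (0 to 134) and 11.3 FPKM (0 to 34.5). In both genes the intervals overlapped.

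In the progesterone pathway Star, Fdx1 and Akr1c18 were higher at 12 h and Hsd3b1 was lower. Star, which carries cholesterol into mitochondria, was at 14.3 FPKM at 0 h (12.2 to 16.5), 1583 at 4 h and 83.8 at 12 h (79.9 to 87.7), a log2 fold of 2.47. The electron carrier Fdx1 was at 182, 1890 and 485 FPKM (1.40), while its reductase Fdxr, at 120, 132 and 170 FPKM (0.51), and the cholesterol-binding protein gene Tspo, at 51.8, 33.8 and 49.7 FPKM (-0.06), were within 2-fold. Cyp11a1, the enzyme that cuts the cholesterol side chain, was at 557, 1713 and 930 FPKM (0.74), short of the threshold. Hsd3b1, which turns pregnenolone into progesterone, was at 3609 FPKM at 0 h (3526 to 3691), 1679 at 4 h and 1402 at 12 h (1363 to 1442), a log2 fold of -1.36. Reads of Hsd3b1 may be shared with near-identical copies, so its level is uncertain. Akr1c18, which breaks progesterone down, was at 5.41, 16.2 and 19.2 FPKM (1.65). Of the 14 measured genes of the list 3 were higher and 1 lower, with a median log2 fold of 0.14 where all genes had -0.01.

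For cholesterol supply, 2 of 16 genes of uptake and storage were higher and 0 lower (median 0.22). The cholesterol exporter Abca1 was at 14.2, 70.1 and 40.5 FPKM (1.45) and the lipoprotein receptor Lrp8 at 11.2, 23.0 and 24.2 FPKM (1.05). The HDL receptor Scarb1 was at 268, 1648 and 283 FPKM, with overlapping intervals at 0 h and 12 h (0.08). Apoe was at 191, 311 and 324 FPKM (0.76). Among 21 genes of cholesterol synthesis 0 were called, with a median of 0.26. The enzyme genes Cyp51 (35.4, 195 and 59.7 FPKM) and Dhcr7 (42.4, 131 and 69.1 FPKM) had their highest level at 4 h.

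Of 24 measured genes of the growing follicle 7 were lower, 1 was higher and 16 were neither (median -0.58). Grem1, a secreted antagonist of bone morphogenetic proteins, was at 78.0 FPKM at 0 h (71.9 to 84.1), 21.7 at 4 h and 5.13 at 12 h (3.48 to 6.77), a log2 fold of -3.69. The receptor of follicle-stimulating hormone, Fshr, was at 133, 15.5 and 32.1 FPKM (-2.02), so its 12 h level lay between those at 4 h and 0 h. Nppc encodes C-type natriuretic peptide, which holds the oocyte in meiotic arrest through the receptor Npr2 on cumulus cells. It was at 159, 14.99 and 32.5 FPKM (-2.26), and Npr2 was at 139, 84.0 and 112 FPKM (-0.31). The inhibin and activin subunits differed in time. Inhbb was at 1354, 27.04 and 542 FPKM (-1.32), lowest at 4 h, whereas Inhba was at 699, 784 and 208 FPKM (-1.74) and Inha, the most abundant coding gene in the 0 h and 12 h libraries, at 6986, 7163 and 3742 FPKM (-0.90), both lowest at 12 h. Follistatin (Fst), which binds activin, was at 597, 350 and 216 FPKM (-1.46). The list had 6 members with a positive log2 fold. Wt1, a transcription factor of immature granulosa cells, was called higher at 13.2, 27.4 and 31.5 FPKM (1.20). The monoamine transporter gene Slc18a2, at 107, 147 and 195 FPKM (0.86), anti-Mullerian hormone, Amh, at 252, 351 and 406 FPKM (0.68), and the receptor gene Igf1r, at 25.4, 74.2 and 39.0 FPKM (0.60), were within 2-fold. The 250 bases before the starts of Nppc (chr1:86670574-86670823, minus strand) and Inhba (chr13:16011601-16011850, plus strand) are shown for 2 hormone genes that were lower at 12 h and reached that level by different courses. Capitals mark the TATA box letters TATAAA, which lie 29 to 24 bases before the start of Nppc and 91 to 86 before the listed start of Inhba, which lies inside the annotated gene (16004256 to 16031609).
Nppc: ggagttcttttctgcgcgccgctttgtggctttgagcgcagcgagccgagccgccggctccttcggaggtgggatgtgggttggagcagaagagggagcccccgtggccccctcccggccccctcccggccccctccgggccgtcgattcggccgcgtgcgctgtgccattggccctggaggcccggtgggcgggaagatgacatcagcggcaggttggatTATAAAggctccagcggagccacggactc
Inhba: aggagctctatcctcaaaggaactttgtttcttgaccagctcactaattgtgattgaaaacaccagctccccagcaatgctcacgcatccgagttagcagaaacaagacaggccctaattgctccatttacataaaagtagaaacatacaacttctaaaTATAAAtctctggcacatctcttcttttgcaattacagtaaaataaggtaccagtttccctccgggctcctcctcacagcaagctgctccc

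Of 8 measured genes of estradiol synthesis and action 1 was lower and 0 higher (median -0.63). Hsd17b1, which makes estradiol from estrone, was at 1065, 151 and 445 FPKM (-1.26). Aromatase, Cyp19a1, which makes estrogens from androgens, was at 198, 30.02 and 104.5 FPKM (-0.91). Both were lowest at 4 h. The nuclear receptors Nr5a1 (SF-1) and Nr5a2 (LRH-1) were at 107, 64.0 and 68.7 FPKM and at 304, 164 and 196 FPKM (-0.63 for both). The estrogen receptor Esr2 was at 102, 54.3 and 106 FPKM (0.05).

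**Figure D2:**
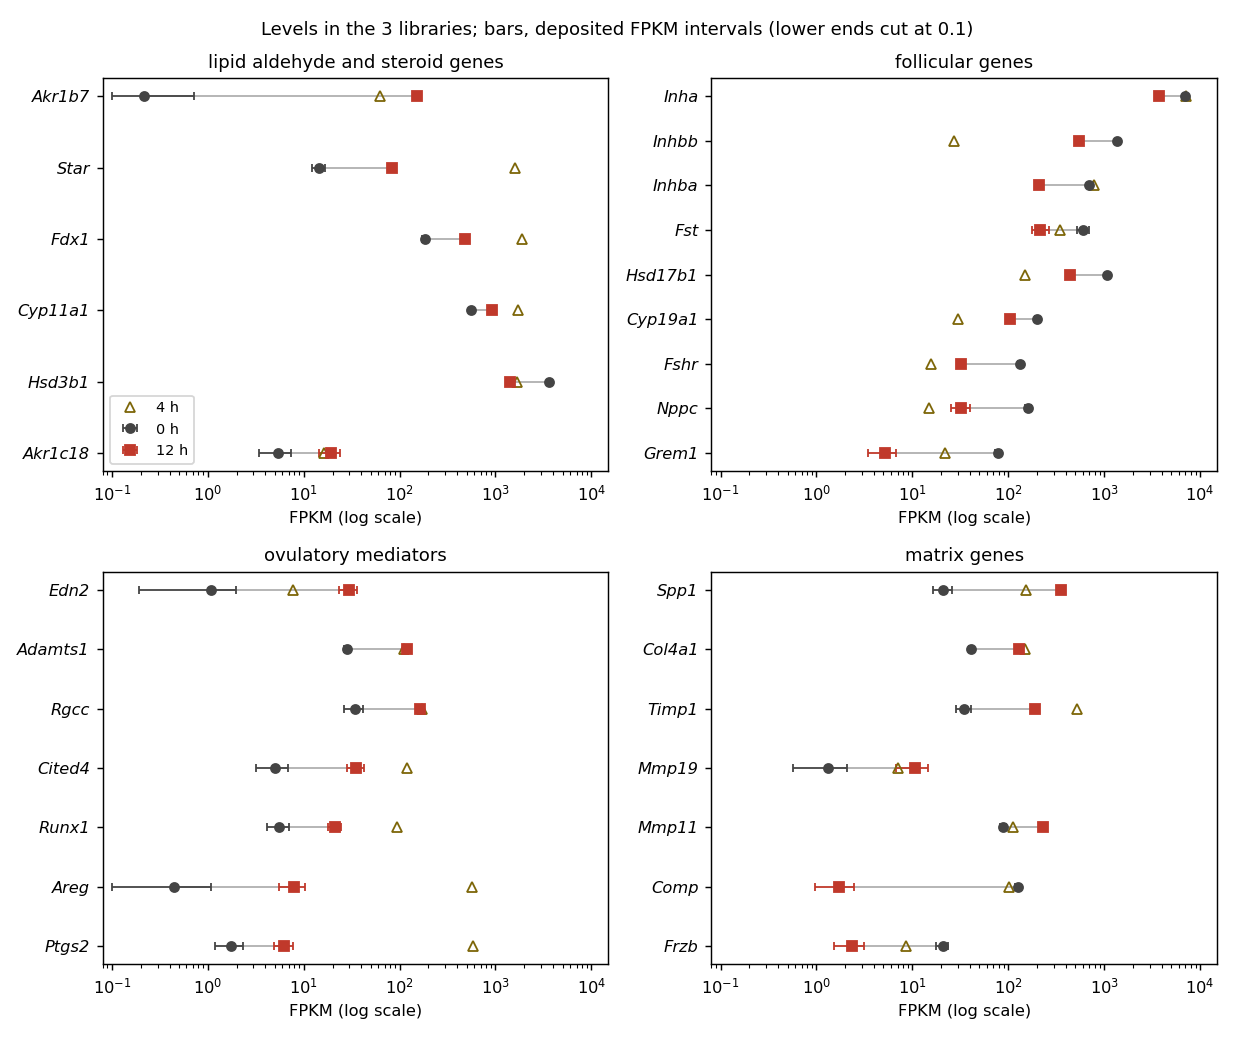
FPKM (horizontal, log scale) of named genes in 4 groups at 0 h (circles), 4 h (open triangles) and 12 h (squares), with bars for the deposited intervals at 0 h and 12 h and lower ends cut at 0.1. Star, Areg and Ptgs2 stand far higher at 4 h than at 12 h, while Spp1, Akr1b7 and Edn2 are highest at 12 h and Comp differs little between 0 h and 4 h.

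The receptor for the ovulatory hormone, Lhcgr, was at 90.1, 113 and 69.4 FPKM (-0.37). Of 20 genes of gonadotropin, prolactin and cAMP signalling 2 were lower and 0 higher (median -0.05). Besides Fshr the lower gene was Prkar2b, a regulatory subunit of protein kinase A, at 1012, 281 and 376 FPKM (-1.43). The prolactin receptor Prlr was at 27.3, 32.9 and 20.9 FPKM (-0.37), and the cAMP-induced repressor Crem was at 6.74, 106 and 12.3 FPKM (0.78).

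Many mediators of ovulation were above their level before hCG. Of 19 measured genes 12 were higher and 0 lower, with a median log2 fold of 1.40 (1.65 without the 2 listed at 0 before hCG, and 0.74 to 1.92 under the alternatives). Il6, Snap25, Sphk1 and Zbtb16 reached 1 FPKM at 12 h but not at 0 h, so the filter fixed their direction. All of these but Zbtb16 are among the 12 genes called higher. The list was chosen with earlier results of these data known, so its direction is not independent evidence. Runx2 and Runx1, transcription factors of the ovulatory follicle, were at 2.23, 72.6 and 12.2 FPKM (2.04) and at 5.57, 94.2 and 21.3 FPKM (1.76). The matrix protease Adamts1 was at 28.5, 112 and 120 FPKM (2.03), and Rgcc, a regulator of the cell cycle, at 34.0, 172 and 165 FPKM (2.25). The prostaglandin synthase Ptgs2 was at 1.76, 581 and 6.32 FPKM (1.40). Sphk1, which makes sphingosine phosphate, was at 0.540, 28.4 and 9.54 FPKM (2.78). Adamts1 and Rgcc thus stood at 12 h close to their 4 h level, whereas Ptgs2 and Sphk1 were well below theirs. Snap25 and Il6, which the 0 h library lists at 0, reached 146 and 4.07 FPKM at 4 h, and their 12 h levels were 1.56 and 1.64 FPKM. The nuclear receptor Pparg was at 96.5, 145 and 51.8 FPKM (-0.89). The progesterone receptor Pgr was at 0.191, 138 and 0.399 FPKM and was below 1 FPKM in both libraries compared, as was Sult1e1, which had 2316 FPKM at 4 h, 0.486 at 12 h and a listed 0 before hCG.

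Of 9 EGF-like ligands, receptors and regulators 4 were higher and 1 lower (median 0.47). Areg and Ereg, both among the higher genes, reached 1 FPKM at 12 h but not at 0 h, so the filter fixed their direction. Amphiregulin, Areg, was at 0.450, 567 and 7.96 FPKM (2.63), epiregulin, Ereg, at 0.572, 363 and 4.72 FPKM (1.86) and betacellulin, Btc, at 1.04, 762 and 3.21 FPKM (1.05). All 3 ligands were at low levels at 12 h that still exceeded those before hCG. Another ligand, Hbegf, was at 16.3, 4.05 and 7.12 FPKM (-1.09). The feedback inhibitor of the receptor, Errfi1, was at 12.5, 282 and 35.4 FPKM (1.43), and the receptor itself, Egfr, was at 9.29, 13.1 and 10.2 FPKM (0.13). The bases before the start of Areg (chr5:91139349-91139598, plus strand) are shown because they hold the full cAMP response element TGACGTCA, 61 to 54 bases before the start, and a TATA box 31 to 26 bases before it, both in capitals.
Areg: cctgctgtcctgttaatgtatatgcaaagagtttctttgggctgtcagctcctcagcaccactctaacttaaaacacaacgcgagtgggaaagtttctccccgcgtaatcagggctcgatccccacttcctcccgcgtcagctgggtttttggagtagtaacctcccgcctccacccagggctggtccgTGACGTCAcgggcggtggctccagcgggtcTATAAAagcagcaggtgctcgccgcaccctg

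The cumulus matrix embeds the expanded cells around the oocyte, and 2 of its 7 measured genes were higher and 0 lower (median 0.49). Tnfaip6, which links hyaluronan chains, was at 1.40, 1251 and 7.01 FPKM (1.74). Ptx3 was at 1.18, 396 and 1.25 FPKM (0.05) and Vcan at 111, 1806 and 119 FPKM (0.09), both with overlapping intervals at 0 h and 12 h. The hyaluronan synthase Has2 was below 1 FPKM in both libraries, at 0.111 and 0.277, with 15.9 at 4 h. In the prostaglandin pathway 3 of 17 genes were higher and 0 lower (median 0.26). Ptgs1, the other prostaglandin synthase, was at 1.40, 7.47 and 8.03 FPKM (1.91) and the transporter Slco2a1 at 3.09, 30.7 and 12.3 FPKM (1.70). Of 15 neuropeptide and secretory granule genes 6 were measured. Nts, Nmu, Snap25 and Chgb reached 1 FPKM at 12 h but not at 0 h, so that the filter fixed their direction and no count is read from the list. Neurotensin, Nts, had 2009 FPKM at 4 h, 2.64 at 12 h and a listed 0 before hCG, and the convertase Pcsk5 was at 11.7, 171 and 44.3 FPKM (1.83).

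Some matrix and vessel genes were higher at 12 h, and most were within 2-fold. Of 25 collagens, laminins and other basement membrane genes 21 had a positive log2 fold, 3 were called higher and 0 lower (median 0.39). The basement membrane collagens Col4a1 and Col4a2, which share a promoter region, were at 41.2, 149 and 130 FPKM (1.63) and at 24.6, 83.5 and 77.3 FPKM (1.61), and Col18a1 was at 7.97, 34.0 and 17.8 FPKM (1.07). All 10 measured integrins had a positive log2 fold (median 0.36), with Itgb3, a subunit of a receptor for osteopontin, called higher at 8.69, 12.5 and 21.9 FPKM (1.24). Of 19 proteases and inhibitors 7 were higher and 1 lower (median 0.16). The filter fixed the direction of 2 of the higher genes, Adamts4 and Pappa, which reached 1 FPKM at 12 h but not at 0 h. The metalloproteinase inhibitor Timp1 was at 34.6, 521 and 191 FPKM (2.43), Mmp19 at 1.32, 7.004 and 10.5 FPKM (2.31) and Mmp11 at 87.9, 111 and 230 FPKM (1.37). The urokinase Plau was at 78.7, 1105 and 200 FPKM (1.33), and the lysosomal protease Ctsh was at 70.1, 52.6 and 27.2 FPKM (-1.34). Mmp19 and Mmp11 were highest at 12 h and Timp1 and Plau at 4 h.

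Where all measured genes had 2.62% higher and 1.94% lower, 4 of 20 angiogenic factors were higher and 0 lower (median 0.20). Besides Edn2 these were the peptide gene Apln, at 1.48, 2.39 and 12.3 FPKM (2.42), the endothelin gene Edn1, at 1.79, 6.28 and 6.28 FPKM (1.39), and the coreceptor gene Nrp1, at 2.88, 9.57 and 7.20 FPKM (1.08). Vegfa was at 59.3, 185 and 70.9 FPKM (0.25), with overlapping intervals at 0 h and 12 h. Of 16 genes of the hypoxia response 4 were higher and 0 lower (median 0.46). Among the higher genes Egln3 and Ankrd37 reached 1 FPKM at 12 h but not at 0 h, so the filter fixed their direction. The prolyl hydroxylase Egln3 was at 0.791, 34.0 and 6.71 FPKM (2.11) and the carbonic anhydrase Car12 at 2.30, 4.71 and 7.27 FPKM (1.32), while Hif1a was at 98.2, 139 and 74.0 FPKM (-0.40) and Bnip3 at 55.6, 9.95 and 36.1 FPKM (-0.61). Of 13 junction genes 0 were called (median 0.03). The gap junction gene Gja1 was at 3048, 1401 and 1585 FPKM (-0.94).

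**Figure D3:**
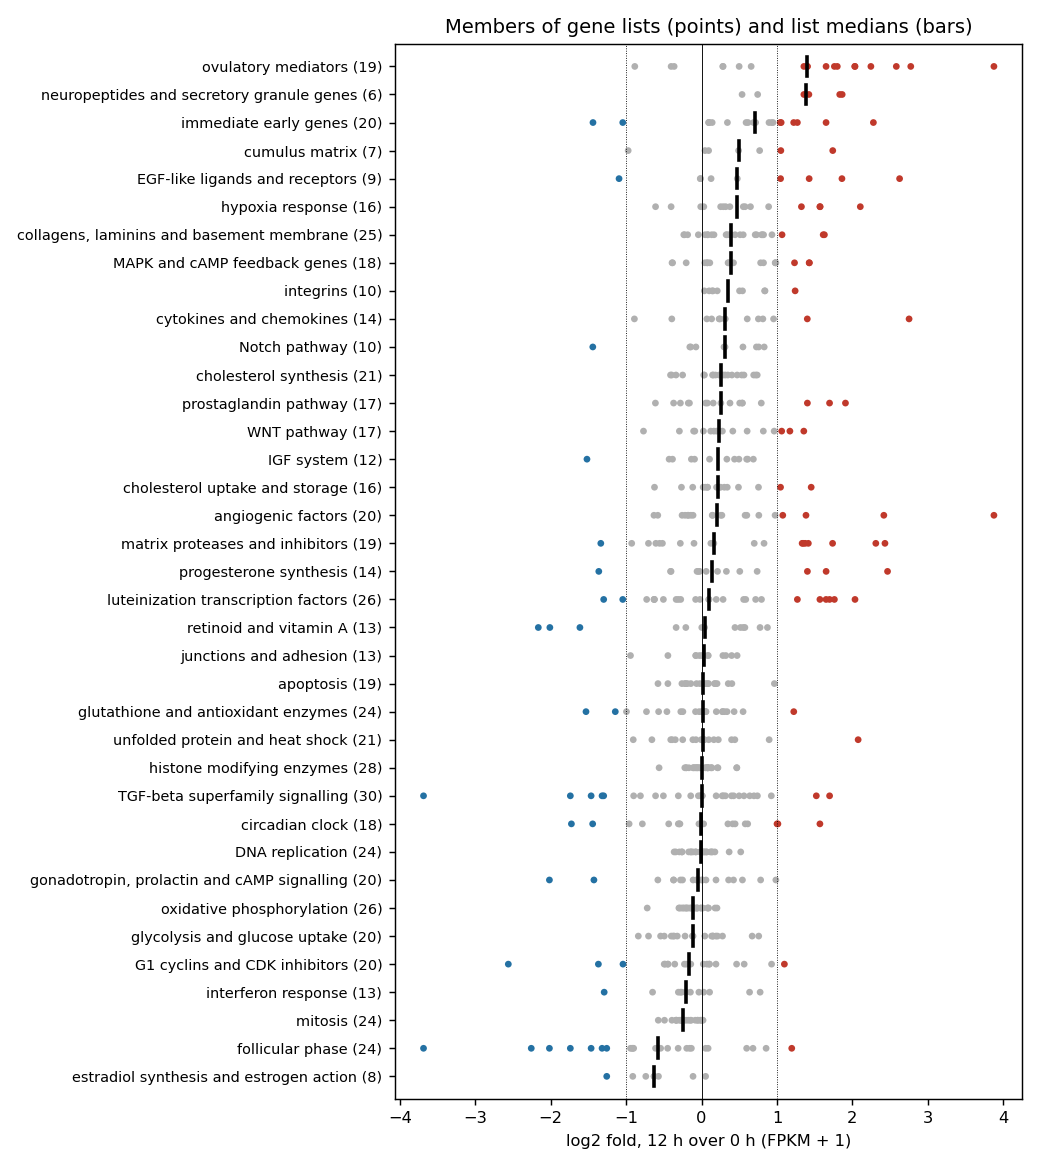
Log2 fold of 12 h over 0 h (horizontal) for each measured member of the gene lists (points, coloured where past 2-fold, with the number measured in brackets) and the list median (black bars), ordered by median. Among the lists drawn, which leave out cell type markers and technical controls, ovulatory mediators have the highest median, 1.40, and estradiol genes the lowest, -0.63, and 22 of 24 mitosis genes lie below 0. Genes listed at 0 in 1 library are drawn at their value on the FPKM + 1 scale. Members that reached 1 FPKM in only 1 of the 2 libraries compared, some of them ovulatory mediators, had their direction fixed by the filter.

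Growth factor signalling genes differed in both directions. Beside the list counts here, 2.62% of all measured genes were higher and 1.94% lower. In the TGF-beta superfamily 2 of 30 genes were higher and 5 lower (median 0.01). Id2 was at 36.3, 116 and 120 FPKM (1.70), whereas its relative Id1 was at 88.6, 41.4 and 35.4 FPKM (-1.30). Smad6, an inhibitor of bone morphogenetic protein signalling, was at 2.90, 8.17 and 10.2 FPKM (1.52). In the IGF system 1 of 12 genes was lower and 0 higher (median 0.22), the receptor substrate gene Irs1 at 31.6, 9.33 and 10.4 FPKM (-1.52). Of 17 WNT genes 3 were higher and 0 lower (median 0.24), with the ligand gene Wnt4 at 4.56, 21.4 and 10.6 FPKM (1.06) and the receptor gene Fzd1 at 2.92, 32.9 and 7.84 FPKM (1.17). The other higher gene, Sfrp2, was at 0.625, 16.6 and 3.16 FPKM. It was below 1 FPKM at 0 h, so the filter fixed its direction. In the Notch pathway 1 of 10 genes was lower and 0 higher (median 0.30), the effector gene Hey2 at 70.1, 15.1 and 25.2 FPKM (-1.44).

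Of 26 transcription factors linked to luteinization 6 were higher and 2 lower (median 0.10). Foxo1, a forkhead factor of growing follicles, was at 257, 105 and 203 FPKM (-0.34). Foxl2, which keeps granulosa identity and is not in that list, was at 149, 44.3 and 102 FPKM (-0.54). Of 20 immediate early genes 6 were higher and 2 lower (median 0.70), among them Ier3 at 20.3, 297 and 102 FPKM (2.28), Nr4a1 at 11.9, 91.7 and 39.4 FPKM (1.65) and Egr1 at 22.9, 157 and 54.8 FPKM (1.22). The AP-1 gene Fosl2 was at 131, 109 and 62.8 FPKM (-1.05), a call lost when the 2 libraries were brought to a common sum. The other lower gene, Fosl1, was at 3.09, 6.51 and 0.508 FPKM with overlapping intervals at 0 h and 12 h. It was below 1 FPKM at 12 h, so the filter fixed its direction. Of 18 MAPK and cAMP feedback genes 3 were higher (6 under each scaling tried) and 0 lower (median 0.39), with the phosphatase gene Dusp6 at 4.59, 50.7 and 12.1 FPKM (1.23). In that list the filter fixed the direction of Dusp4, Pde4b and Pde4d, which were below 1 FPKM at 0 h. It also fixed that of Rgs16, which was below 1 FPKM at 12 h. Dusp4 and Pde4d lay just under the threshold, so the larger count under scaling is not independent of the filter. Beside these lists, genes that respond to tissue dissociation and stress were 3 of 13 higher (median 0.34). Among them were Gadd45b at 12.7, 40.3 and 46.1 FPKM and Hspb1 at 2.04, 9.24 and 11.8 FPKM. Hspa1b (5.78 and 3.30 FPKM at 0 h and 12 h) was not higher. Hspa1a (1.33 and 0.828 FPKM) was below 1 FPKM at 12 h, so the filter fixed its direction. The part of cell handling in the early gene levels was not tested.

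Cell cycle genes were near their level before hCG. Of 24 mitosis genes 0 were called, although 22 had a negative log2 fold (median -0.24). The mitotic cyclin Ccnb2 was at 86.3, 25.97 and 57.6 FPKM (-0.57), Aurkb at 45.1, 23.0 and 31.8 FPKM (-0.49) and Mki67 at 37.7, 26.9 and 36.5 FPKM (-0.05). Of 24 DNA replication genes 0 were called (median -0.01). Among 20 G1 cyclins and inhibitors of cyclin-dependent kinases 1 was higher and 3 lower (median -0.17). Cdkn2a and Cdkn2b, both among the lower genes, reached 1 FPKM at 0 h but not at 12 h, so the filter fixed their direction. The inhibitor Cdkn1a was at 6.85, 58.6 and 15.8 FPKM (1.10), Cdkn2a at 8.04, 1.74 and 0.529 FPKM (-2.56), and Ccnd2, the cyclin that FSH induces, at 66.5, 37.7 and 48.5 FPKM (-0.45). Of 19 apoptosis genes 0 were called (median 0.03).

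Measured genes of energy metabolism and chromatin were within 2-fold. Of 20 glycolysis genes, 26 of oxidative phosphorylation and 28 of histone modification 0 were called, with medians of -0.12, -0.11 and 0.01. The glycolysis genes Gapdh (0.910 and 0.894 FPKM at 0 h and 12 h) and Eno1 (0 and 0.677 FPKM) were not measured, so that count does not cover them. Of 24 glutathione and antioxidant genes 1 was higher and 2 lower (median 0.02), beside 2.62% higher and 1.94% lower over all measured genes. The secreted peroxidase Gpx3 was at 164, 287 and 385 FPKM (1.22) and the glutathione transferase Gsta4 at 347, 876 and 119 FPKM (-1.53). Of 21 unfolded protein and heat shock genes only Hspb1 was called (median 0.02). In retinoid metabolism 3 of 13 genes were lower and 0 higher (median 0.04): the retinaldehyde dehydrogenase Aldh1a1 was at 412, 128 and 101 FPKM (-2.01), its near relative Aldh1a7 at 21.0, 5.00 and 6.20 FPKM (-1.61) and the binding protein Crabp1 at 9.11, 1.12 and 1.25 FPKM (-2.17). Of 18 clock genes 3 were higher and 2 lower (median 0.00). Dbp was at 12.1, 1.23 and 2.97 FPKM (-1.73), Ciart at 13.9, 1.20 and 4.47 FPKM (-1.44) and Bhlhe40 at 8.54, 50.3 and 27.3 FPKM (1.57). The sources used here give no clock time of collection, so the time of day and the time after hCG cannot be told apart. Of 14 cytokine and chemokine genes 2 were higher and 0 lower (median 0.31). The filter fixed the direction of 1 of these higher genes, Il6, which was listed at 0 before hCG. Of 13 interferon genes 1 was lower, Irf7 at 8.99, 4.33 and 3.08 FPKM with overlapping intervals (median -0.20).

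Markers were read for what else the punctured follicles could hold. All 11 granulosa markers were measured, 4 of them lower and 0 higher (median -0.91), and Inha and Gja1 were among the 10 most abundant coding genes of both libraries. In bulk RNA fewer cells of a type and less RNA per cell cannot be told apart. Of 7 cumulus markers 0 were called (median -0.17). The 13 measured oocyte markers had a median of 0.47 and 12 were positive. Among these 12 Figla passed the filter only through the 12 h library, so its direction was fixed by the filter. The 13 markers had summed levels of 287, 219 and 397 FPKM at 0, 4 and 12 h, with Gdf9 at 53.6, 48.2 and 83.8 FPKM. Theca and stroma markers summed to 433, 802 and 602 FPKM, with Mgp at 70.9, 371 and 191 FPKM (1.42), Cyp17a1 at 93.6, 114 and 59.0 FPKM (-0.66) and Insl3 at 13.1, 7.02 and 4.02 FPKM (-1.49, intervals overlapping). Of the 12 measured 1 was higher and 1 lower. Smooth muscle markers summed to 133, 195 and 191 FPKM and endothelial markers to 36.2, 69.9 and 30.7 FPKM, with 0 of 9 called in each. Leukocyte markers summed to 69.5, 116 and 113 FPKM. Of the 8 measured, Cd68 was higher, at 5.39, 22.7 and 12.5 FPKM with overlapping intervals, and the pan-leukocyte gene Ptprc stayed under 1 FPKM, at 0.489 and 0.521 at 0 h and 12 h. Of 2 neutrophil markers Camp, listed at 0 before hCG, was at 2.82 FPKM at 12 h. The other, S100a8, was at 1.59, 10.2 and 0.463 FPKM (-0.83), with overlapping intervals at 0 h and 12 h. Each reached 1 FPKM in only 1 of the 2 libraries compared, so the filter fixed the direction of both. Erythroid markers summed to 1739, 1091 and 1110 FPKM, and 2 of 4 were lower. Surface epithelium markers summed to 471, 272 and 188 FPKM, mostly Aldh1a1, with Krt18 higher at 7.70, 36.5 and 18.0 FPKM (1.12) and 1 of 9 lower. In that list 7 of 9 had a positive log2 fold (median 0.35), and the lower gene, Aldh1a1, carried the decline of the sum. Collagens of the theca list overlap the matrix list above, and the part of stroma, leukocytes or oocytes in the matrix and mediator results was not tested. Of 12 housekeeping genes 0 were called (median -0.05). Rpl19 and Ppia were at only 2.91 and 1.13 FPKM at 0 h, so low or 0 values of a gene can be a failed estimate.

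Called genes had shorter transcripts than the rest. The median length was 2139 nt for higher, 2094 nt for lower and 2838 nt for all measured genes. In the shortest decile, 132 to 1151 nt, 10.5% of genes were called, against 3.09% in the longest. On the X chromosome 7 of 431 genes were higher and 19 lower (median -0.10), 6.03% called in all. Chromosome 10 had 5.87% called, with 24 of 596 genes higher and 11 lower. All measured genes had 4.56% called, 2.62% higher and 1.94% lower. RefSeq promoters (GRCm38.p6, 250 bases before the start) matched 9938 of the 12350 genes, 246 of the 323 higher and 170 of the 240 lower. The most upstream start that the RefSeq promoter table lists for each gene was used, which need not be the first base of the annotated gene, and motifs were searched on both strands. AP-1 letters, TGANTCA, stood in 10.2% of promoters of higher genes, 6.47% of lower genes and 4.11% of all measured genes, but in 6.85% of all 27025 promoters of the table. TATAAA stood in 12.2%, 15.3%, 6.34% and 13.0% of the same groups, the forkhead letters TGTTTAC in 3.66%, 6.47%, 2.05% and 3.06%, and AAGGTCA in 3.66%, 4.71%, 2.68% and 4.04%. The full cAMP element TGACGTCA was in 1.22%, 1.76%, 2.71% and 1.6%, and its shorter core TGACGT, which the full element contains, in 5.69%, 7.65%, 10.2% and 6.52%. The GATA letters AGATAA were in 8.94%, 9.41%, 5.64% and 10.2%, CCAAT in 30.1%, 37.6%, 36.7% and 34.5%, and the E-box CACGTG in 6.10%, 7.65%, 8.59% and 6.04%. Median GC content was 57.6% in higher, 56.2% in lower and 60.0% in all measured promoters, and the part of base composition in these shares was not tested. Asgr1 (chr11:70053874-70054123, plus strand) is shown as a leading higher gene with the AP-1 letters, in capitals 226 to 220 bases before the listed start. That start lies inside the annotated gene, which spans 70048909 to 70057895.
Asgr1: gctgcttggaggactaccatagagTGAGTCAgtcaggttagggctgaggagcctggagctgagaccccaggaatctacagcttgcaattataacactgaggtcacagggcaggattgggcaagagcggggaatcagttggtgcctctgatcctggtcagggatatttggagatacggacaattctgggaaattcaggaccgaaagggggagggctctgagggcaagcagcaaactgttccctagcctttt

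**Figure D4:**
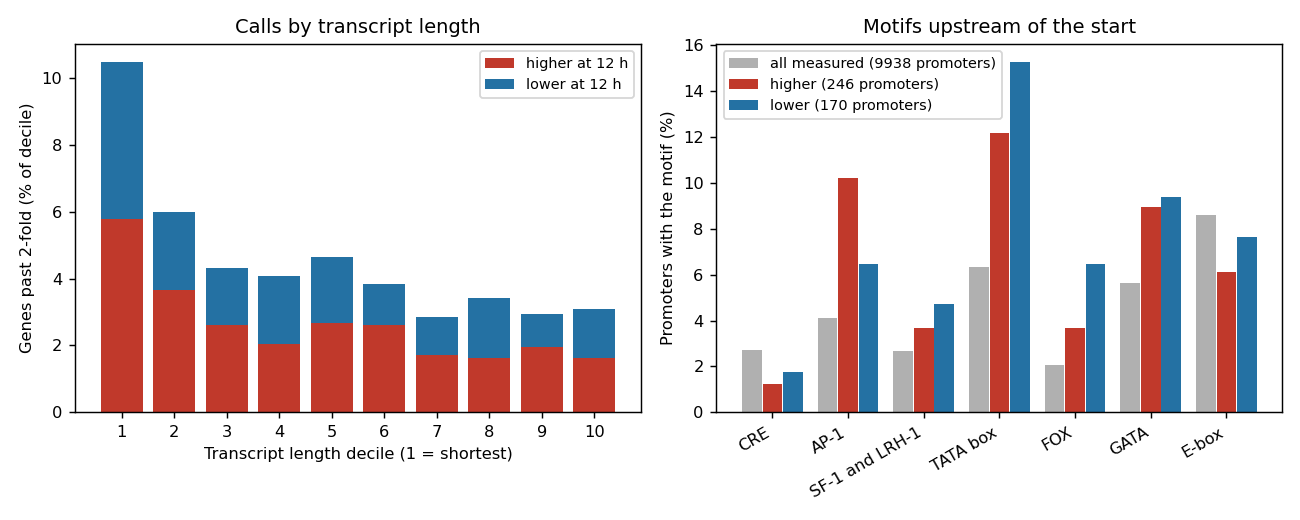
Left, share of genes past 2-fold in each decile of transcript length (bars from 0, higher and lower stacked). Right, share of promoters with each motif among all measured, higher and lower genes. The shortest decile holds 10.5% called genes, and AP-1 letters stand in 10.2% of promoters of higher genes against 4.11% of all measured.

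Isoform shares were compared within genes. Of 2132 genes with several isoforms that had at least 10 FPKM at both times, 111 (5.21%) had an isoform whose share of the gene changed by at least 50 percentage points, and in 77 of these the intervals of the isoforms that changed lay apart. None of the 111 was also higher by 2-fold, 1 was lower and 110 were neither, and most genes at that level were neither (60 higher and 68 lower of 6757). In Mrto4, a ribosome assembly factor, isoform NM_023536 held 99.4% of 28.8 FPKM at 0 h and 0.0103% of 36.5 at 12 h, and NM_001290810 held the rest. Nme7, a nucleoside diphosphate kinase family gene, had 98.2% of 13.7 FPKM in isoform NM_138314 at 0 h and 98.9% of 12.9 in NM_001293313 at 12 h. These shares are estimates from 1 library each. The part that assignment of reads shared between isoforms had in them was not tested. The other leading genes were Anapc15, Exosc10 and Homer3.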

How the data were processed

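Granulosa cell mRNA was sequenced in 1 library per time, and the 0 h and 12 h libraries were compared, with 4 h shown beside them. The deposited values are FPKM of RefSeq isoforms with lower and upper bounds. The submitters' processing notes name TopHat2 2.1.1, Cufflinks 2.2.1, CASAVA 1.8 and the mm10 genome, and no role for any of them was given. The interval's level, strandedness and read length are not given in the sources used here, so overlapping antisense genes and near-identical copies are uncertain. Of 34535 isoforms 34169 were matched to symbols through RefSeq (GRCm38.p6) and 193 through GENCODE, and 173 were left out. FPKM were summed per gene, with interval widths added in quadrature. The log2 fold used a pseudocount of 1 FPKM and genes with at least 1 FPKM in 1 library. Depth was read from the spacing of low values, of which 70.5%, 69.3% and 71.0% were within 0.1 of a whole fragment (20% by chance). The comparison, its members and the 49 gene lists were chosen with earlier results of these data known. Named genes were the top 15 by fold each way at 5 FPKM or more, up to 4 per list, the most abundant 10, the 5 with the largest isoform change and 20 fixed genes; other list members were named as examples after their values were seen. Scripts were tested on simulated data. Python 3.11, numpy 2.4.6, pandas 2.3.3 and matplotlib 3.10.9 were used. Alternatives were other pseudocounts, filters, scalings, thresholds, the most abundant isoform alone, and a length correction.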

Additional observations from a re-analysis of the deposited data

How the results depend on the processing

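With 1 library per time no replicate could be left out, and the depth limits genes of low level most. No paired analysis was possible because each time has 1 library. Counts of higher and lower genes were 606 and 396 with a pseudocount of 0.1 FPKM, 103 and 88 with 5 FPKM, 492 and 430 with the most abundant isoform alone, 996 and 728 at 1.5-fold and 42 and 32 at 4-fold. The share of called genes that were higher was 57.4%, and 64.6% or 62.3% with libraries brought to a common sum over all or over protein-coding genes. Isoform share changes were found in 337 genes at 30 percentage points and 188 at 5 FPKM. None of the 109 named genes past the threshold and no list median past 2-fold reversed direction in the alternatives run. For single genes most of these settings could not have reversed a call. Pseudocounts and filters cannot change the direction of a gene. The scalings, 0.971 to 1.03 per library, and the length correction were too small to do so. Only the most abundant isoform alone could have reversed a gene. Of the 109 genes 72 stayed past the threshold with the pseudocount of 5 FPKM, 105 with the most abundant isoform and at least 108 under each scaling. Over all genes the median log2 fold was -0.01 as deposited and 0.02, 0.06 and 0.04 under the 3 scalings.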

Other observations

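Long non-coding RNA genes were not part of the coding comparison. Of 427 measured, 24 were higher and 32 lower at 12 h, with a median log2 fold of -0.08. Among the measured coding genes 2.62% were higher and 1.94% lower. Gm6093 had levels of 0.305, 33.2 and 19.0 FPKM at 0, 4 and 12 h (log2 fold 3.94). 4930557K07Rik had a listed 0 before hCG, then 11.6 FPKM at 4 h and 13.0 at 12 h. Gm19705 was at 1.83, 0.795 and 9.12 FPKM (1.84), above its earlier levels only in the 12 h library, although its intervals at 0 h and 12 h overlapped. Gata6os, which lies beside the gene of the transcription factor Gata6, was at 78.9, 33.1 and 31.6 FPKM (-1.29), and Gata6 was at 61.2, 44.7 and 36.6 FPKM (-0.73). Without strand information in the sources used here, reads of the 2 cannot be told apart where they overlap.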
